A study of Mus musculus with 12 samples.

Results

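The genes described here encode the sarcomere and the contractile apparatus of striated muscle. They were taken by symbol from a list of 41 names covering myosins, actins, troponins, titin, nebulin, M-band and Z-disc proteins, desmin and the factors that assemble them. All 41 symbols were in the expression table of 23446 genes. Of these, 6 had under 10 reads summed over the 12 libraries and were left out, and 35 remained. Among the 35, 31 had enough reads to be tested among the 12230 tested genes of the table. The cells were C2C12, an established line of mouse myoblasts that proliferates in culture and can be brought to differentiate into multinucleate myotubes. Messenger RNA was sequenced in 4 groups of 3 libraries. DM-AA cells were in differentiation medium (DM) and received the ketone body acetoacetate (AA) for 12 h. DM-PBS cells were in the same medium with phosphate-buffered saline (PBS) for 12 h. GM-AA cells were in growth medium (GM) with AA for 12 h, and GM-PBS cells were in growth medium with PBS for 12 h. The labels do not give the composition of the media, the salt or dose of AA, how long cells had been in DM, or whether libraries of 1 group are separate cultures. P-values therefore measure the spread between these libraries, which may be technical.

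A sarcomere is built from thick filaments of myosin that slide along thin filaments of actin. Tropomyosin and the troponin complex on the thin filament make that sliding depend on calcium. Thin filaments are anchored in the Z-disc by alpha-actinin and its partners. Thick filaments are held in register at the M-band, and titin spans the distance between both. In myoblasts most of these genes are silent or low, and they are switched on during differentiation by the MyoD family, MEF2 and serum response factor (SRF), starting with embryonic and cardiac isoforms that adult fibres later replace.

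Short DNA motifs bound by these factor families stand close to the start sites of several of the genes. RefSeq start sites on GRCm38.p6 were found for 27 of the 35 genes, and the 250 bases before each were searched on both strands for the E-box CANNTG (bound by the MyoD family), the MCAT motif CATTCC (bound by TEAD factors), the CArG box (bound by SRF) and the MEF2 box. A CArG box was present in 4 of the 27 genes (14.8%), namely Acta1, Actc1, Ldb3 and Myom1, against 1.62% of 27025 genes with a start site in the same table. A MEF2 box was present in 5 (18.5%, against 3.42%), namely Klhl41, Myh1, Myoz2, Synpo2l and Ttn. MCAT was present in 9 (33.3%, against 14.4%) and an E-box in 21 (77.8%, against 69.3%). The 5 promoters below belong to genes that rose with AA in DM. They show the CArG box of both actins, the MEF2 box of Klhl41 and Ttn, and the MCAT motifs of Acta1 and Pdlim3. They lie at chr8:123894776-123895025 on the minus strand (Acta1), chr2:114052876-114053125 on the minus strand (Actc1), chr2:69669870-69670119 on the plus strand (Klhl41), chr2:76982548-76982797 on the minus strand (Ttn) and chr8:45885237-45885486 on the plus strand (Pdlim3). Each is written 5′ to 3′ on the strand of its gene and ends at the base before the start site. Capitals mark CArG, MEF2 and MCAT matches on either strand, and E-boxes are left in lower case.
Acta1: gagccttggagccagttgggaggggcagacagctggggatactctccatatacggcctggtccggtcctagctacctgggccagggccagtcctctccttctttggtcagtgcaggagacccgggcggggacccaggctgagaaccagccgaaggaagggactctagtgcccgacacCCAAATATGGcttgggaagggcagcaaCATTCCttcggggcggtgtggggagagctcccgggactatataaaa
Actc1: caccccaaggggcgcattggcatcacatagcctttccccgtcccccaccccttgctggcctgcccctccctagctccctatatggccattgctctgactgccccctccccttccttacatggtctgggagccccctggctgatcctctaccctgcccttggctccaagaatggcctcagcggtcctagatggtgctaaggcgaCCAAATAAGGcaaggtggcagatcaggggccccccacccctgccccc
Klhl41: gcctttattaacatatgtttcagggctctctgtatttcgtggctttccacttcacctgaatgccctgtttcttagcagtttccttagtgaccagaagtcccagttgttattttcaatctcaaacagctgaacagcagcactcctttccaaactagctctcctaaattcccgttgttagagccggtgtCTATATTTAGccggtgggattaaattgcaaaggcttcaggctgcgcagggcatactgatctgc
Ttn: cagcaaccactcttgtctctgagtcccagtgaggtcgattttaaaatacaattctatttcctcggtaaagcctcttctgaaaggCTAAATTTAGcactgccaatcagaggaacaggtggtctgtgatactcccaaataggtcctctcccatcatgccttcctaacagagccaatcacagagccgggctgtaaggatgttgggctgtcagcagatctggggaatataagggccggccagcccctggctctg
Pdlim3: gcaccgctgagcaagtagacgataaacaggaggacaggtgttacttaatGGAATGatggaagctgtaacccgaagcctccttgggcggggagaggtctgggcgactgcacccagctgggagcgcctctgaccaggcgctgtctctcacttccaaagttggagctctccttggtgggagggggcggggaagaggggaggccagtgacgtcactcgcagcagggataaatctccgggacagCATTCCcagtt
The first base of the CArG box lay 73 bases before the start site in Acta1 and 47 bases before it in Actc1, and the MEF2 box began 63 bases before it in Klhl41 and 166 bases before it in Ttn. A match is a string of letters and was not tested as a binding site.

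The libraries held 7959519 to 9893564 reads in genes, and 14530 to 14798 genes had at least 1 read. Myoblast markers (Des, Myod1, Myf5, Cdh15, Pax7, Myog) were present in each library. Their summed levels were 2420 to 2660 CPM (reads of a gene scaled to the total of its library) in DM-AA, 2130 to 2160 in DM-PBS, 2140 to 2220 in GM-AA and 1880 to 1940 in GM-PBS. Most of each sum was Des, itself 1 of the 35 genes, with means of 1790, 1550, 1700 and 1450 CPM in those groups. With AA the other markers had higher means in both media, except Myod1 in GM (178 CPM, against 225 with PBS). Of the lists for other cell types, the smooth muscle markers (5 of 6 tested, mostly Acta2) summed to 2550 to 2660 CPM in DM-AA, 2290 to 2400 in DM-PBS, 2250 to 2400 in GM-AA and 2150 to 2310 in GM-PBS. Acta2, Cnn1 and Lmod1 had higher means with AA in both media, while Tagln and Smtn had lower ones. Tagln had 219 CPM in DM-AA, 281 in DM-PBS, 354 in GM-AA and 428 in GM-PBS. Myh11, the defining smooth muscle myosin, had 6 reads in all libraries together. The osteoblast list, which is nearly all Spp1, summed to less with AA, at 1580 to 1800 CPM in DM-AA, 4160 to 4500 in DM-PBS, 2300 to 2530 in GM-AA and 4810 to 5040 in GM-PBS. Its marker Ibsp was at 0. Cardiomyocyte, adipocyte, endothelial and immune lists each summed to under 5 CPM in each library, with the adipocyte genes Plin1 and Lep and the macrophage gene Emr1 at 0. The epithelial list, mostly Krt19, summed to 29.4 to 30.5 CPM in DM-AA, 27.4 to 30.8 in DM-PBS, 69.0 to 75.8 in GM-AA and 84.6 to 87.5 in GM-PBS. The rank correlation between a gene's GC content and its deviation from the mean of all libraries also moved with AA, at -0.158 to -0.0585 in DM-AA, 0.12 to 0.153 in DM-PBS, -0.168 to -0.114 in GM-AA and 0.0106 to 0.211 in GM-PBS. The tested sarcomere genes had a median GC content of 54.1%, against 50.8% for all tested genes. The counts of called sarcomere genes in both AA comparisons were as large after the trend with GC and length was taken out, 26 in DM and 15 in GM. The part of cell types other than myoblasts in the results was not tested. Exons of genes on the opposite strand cover 15.5% of the exon bases of Ckm, 9.04% of Unc45b, 8.11% of Myh1 and 5.86% of Des, and without a known strand such reads cannot be told apart; the overlaps of Tnnc2, Tmod1, Mybph and Myom1 are given with the gene.

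Contractile genes were a small part of these transcriptomes. All 35 together took 0.384 ± 0.0206% of reads in DM-AA, 0.261 ± 0.011% in DM-PBS, 0.256 ± 0.00868% in GM-AA and 0.192 ± 0.00194% in GM-PBS (SD, n = 3 each). The largest share of that was Des, the muscle intermediate filament protein desmin, which gave 47.3 ± 0.271% of those reads in DM-AA, 59.1 ± 2.45% in DM-PBS, 66.4 ± 2.99% in GM-AA and 74.6 ± 0.577% in GM-PBS. Without Des, the others took 0.202 ± 0.0109%, 0.107 ± 0.0107%, 0.0863 ± 0.0101% and 0.0487 ± 0.00088% of reads in DM-AA, DM-PBS, GM-AA and GM-PBS. Per kilobase, the median level over the 35 genes was 4.03 RPKM (reads per kilobase, scaled by depth) in DM-AA, 1.71 in DM-PBS, 1.71 in GM-AA and 1.02 in GM-PBS. Desmin stood far above the rest at 542, 465, 504 and 428 RPKM in those groups. Next in DM-AA came Pdlim3 (45.6 RPKM), Actc1 (23.1), Actn3 (22.7), Tnnt2 (22.0), Acta1 (19.9), Synpo2l (17.1) and Mylpf (10.1), and in GM-PBS Tnnt2 (17.8) and Acta1 (17.3). Few of the genes reached 10 RPKM, namely 8 in DM-AA, 4 in DM-PBS, 4 in GM-AA and 3 in GM-PBS.

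Several of the named genes had almost no reads. The 6 genes left out were Myh2 (fast IIa myosin, 9 reads in 12 libraries), Myh8 (perinatal myosin, 5 reads), Actn2 (the alpha-actinin of cardiac and all skeletal fibres, 5 reads), Mybpc1 (slow myosin-binding protein C, 1 read), and Myh4 (fast IIb myosin) and Myot (myotilin, a Z-disc protein), with 0 reads each. A count of 0 in 101918755 reads allows a level of up to 0.0294 CPM over the 12 libraries, counting error alone. Myh7 (slow myosin, 29 reads), Cav3 (caveolin of the muscle membrane, 25 reads), Tcap (telethonin, which caps titin, 15 reads) and Myoz2 (a calcineurin-binding Z-disc protein, 13 reads) were kept but too low to test, so no difference between groups was detectable for them at this depth.

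In differentiation medium, sarcomere genes were higher with AA across every structural class. Of 31 tested genes, 26 rose and 0 fell past a 5% false discovery rate (edgeR quasi-likelihood test, Benjamini-Hochberg over 12230 genes), against 12.6% of all tested genes that rose and 13.8% that fell. At an unadjusted p under 0.05 the counts were 28 higher and 0 lower, against 2205 higher and 2315 lower of all 12230 tested genes. DESeq2 called 24 higher and 0 lower. The median log2 fold change was 1.09 over the 31 genes and 0.0021 over all tested genes. Of the 26, 18 rose by 2-fold or more, against 93 of the 1538 genes that rose among all tested. All 3 DM-AA libraries lay above all 3 DM-PBS libraries for 27 of the 31, against 19.9% of all tested genes. The genes that did not pass were Myl4, Mylk2, Tnnc1, Tnnt1 and Tnnt2. Tnnt3, Unc45b and Myh1 passed the low-count filter only with their DM-AA libraries, where they had 54, 59 and 61 reads. They are among the 26 and the 27, and their rise in DM is not independent of that filter. With no low-count filter, 26 genes also rose. RNA of whole cultures was measured, so more cells expressing a gene and more RNA per cell cannot be told apart.

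In growth medium fewer sarcomere genes passed. With AA, 15 of 31 rose and 0 fell, where 9.76% of all tested genes rose and 11.0% fell. At an unadjusted p under 0.05 the counts were 22 higher and 0 lower, against 1928 higher and 2083 lower of all 12230 tested genes. DESeq2 called 13 higher and 0 lower, and gave no adjusted p for 7 of the 31. The median log2 fold change was 0.64 over the 31 genes, against -0.0034 over all tested genes. Values above 0 numbered 29 of 31, against 6023 of all 12230 tested genes. All 3 GM-AA libraries lay above all 3 GM-PBS libraries for 18 of the 31, against 16.4% of all tested genes.

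**Figure D1:**
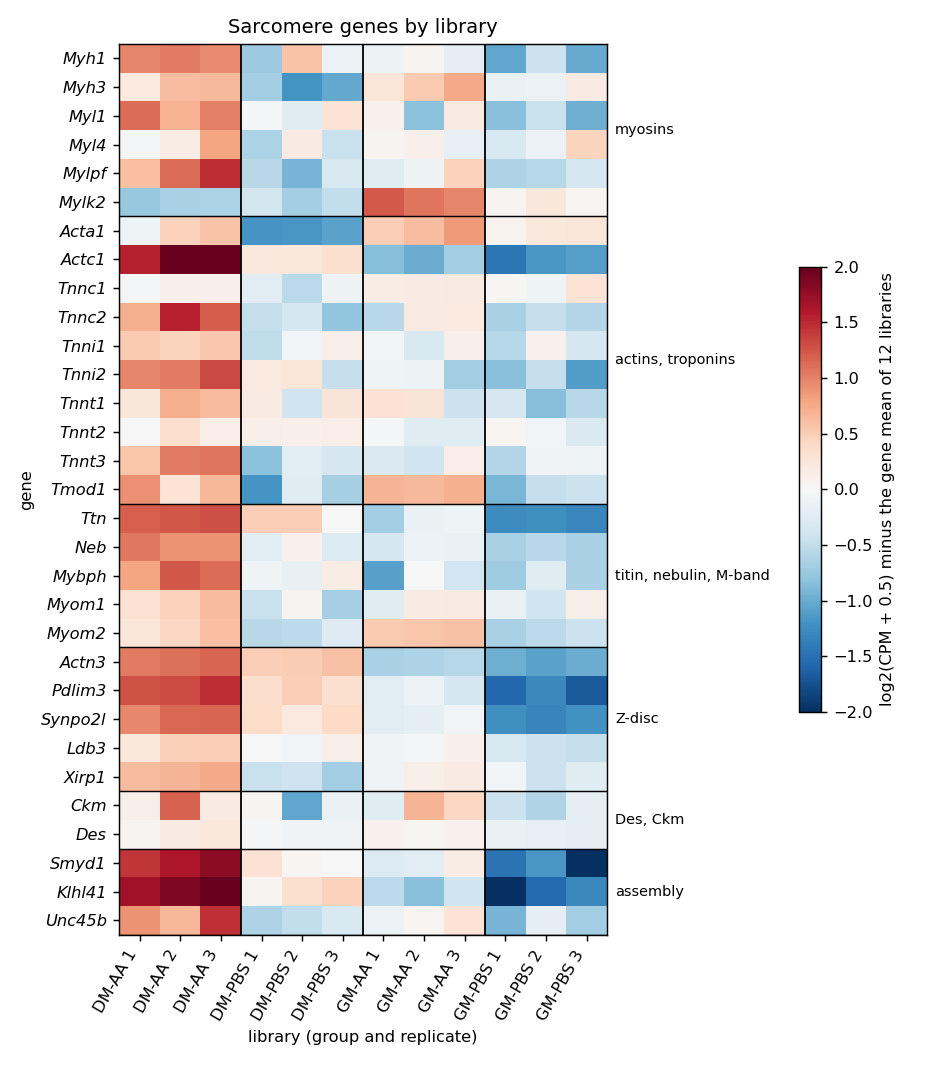
Level of each of the 31 tested sarcomere genes (rows, grouped by role) in each of the 12 libraries (columns), as log2(CPM + 0.5) minus the gene's mean over all libraries; red is above the mean and blue below it. Most rows are reddest in the 3 DM-AA libraries and bluest in the 3 GM-PBS libraries, while Mylk2 is reddest in GM-AA.

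The AA comparisons in DM and in GM share no library. Called in both were 14 genes (Acta1, Actn3, Des, Klhl41, Ldb3, Myh3, Myom2, Neb, Pdlim3, Smyd1, Synpo2l, Tmod1, Ttn and Xirp1), which is 53.8% of the calls in DM and 93.3% of the calls in GM. The same overlap over all tested genes was not computed, so these percentages do not set the sarcomere genes apart. Called in DM and not in GM were 12 (Actc1, Ckm, Mybph, Myh1, Myl1, Mylpf, Myom1, Tnnc2, Tnni1, Tnni2, Tnnt3 and Unc45b), among them the 3 fast troponin genes and both fast light chains. Mylk2 was called in GM and not in DM. Myl4, Tnnc1, Tnnt1 and Tnnt2 were called in neither. A call in 1 medium alone is not a test that the media differ, which is given further on. The log2 fold change was larger in DM than in GM for 22 of 31 genes, against 6076 of 12230 tested genes. Tnnt3, Unc45b and Myh1 are among the 22 and the 12. They passed the low-count filter only with DM-AA, so these counts are not independent of that filter. Across the 31 genes the log2 fold changes in DM and GM correlated weakly (Pearson r = 0.255, Spearman rho = 0.305). Over all tested genes they correlated more strongly (Pearson r = 0.531, Spearman rho = 0.493). Genes share libraries and are not independent.

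**Figure D2:**
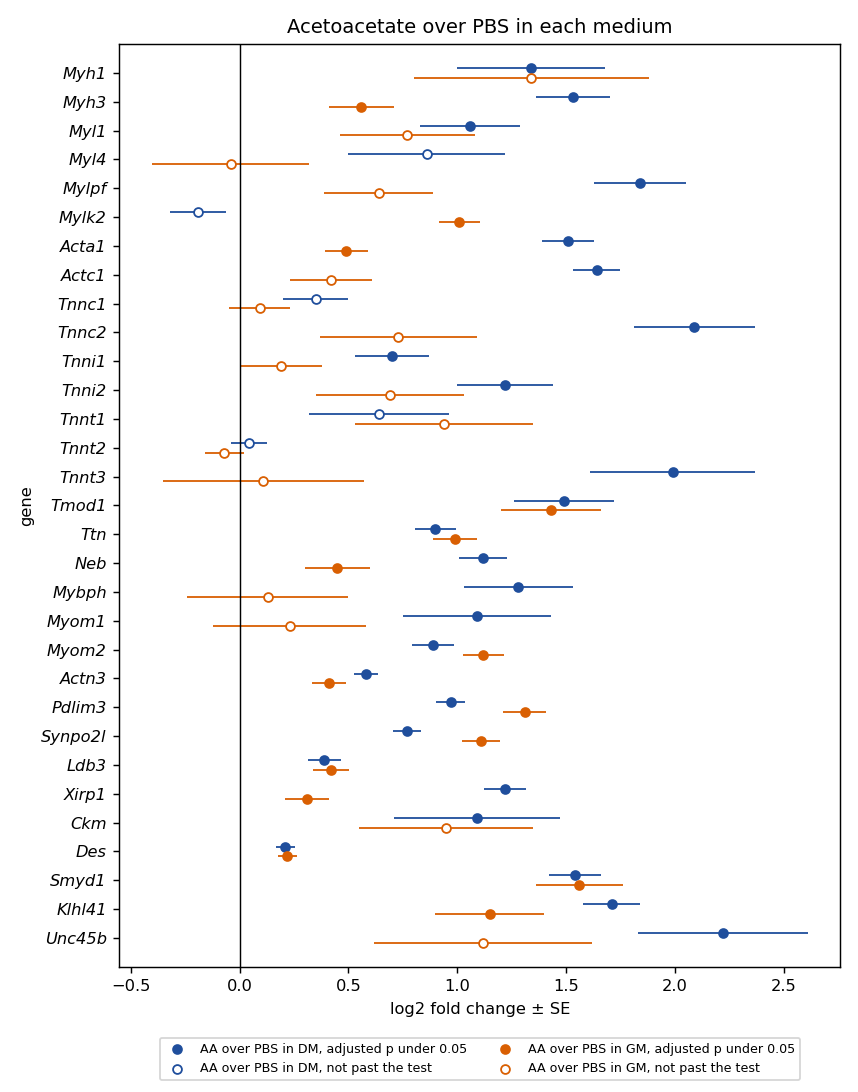
Log2 fold change of AA over PBS for each tested sarcomere gene in DM (blue, upper point of each row) and in GM (orange, lower point), with SE bars from the edgeR fit; filled points passed a 5% false discovery rate and open points did not. In DM 26 points are filled and to the right of 0, and in GM 15. The points of Mylk2 lie on opposite sides of 0.

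Among the myosins, the embryonic heavy chain Myh3 was the main sarcomeric heavy chain. It had 10.6, 14.3 and 14.7 CPM in DM-AA libraries and 5.5, 3.7 and 4.27 CPM in DM-PBS libraries. In growth medium it had 10.9, 13.4 and 15.8 CPM with AA and 8.31, 8.45 and 10.3 CPM with PBS. The groups did not overlap in either medium, and the DM-PBS libraries were the lowest of all. Myh3 rose with AA in DM (log2 fold change 1.53 ± 0.17 SE, adjusted p = 2.28e-08) and in GM (0.56 ± 0.15, adjusted p = 0.0067). The GM call was lost without GM-AA 3 (adjusted p = 0.0742). Myh1, the fast IIx heavy chain, rose in DM (1.34 ± 0.34, adjusted p = 0.00339) on few reads, 61 in the DM-AA libraries together and 25 in DM-PBS. The call was lost without DM-PBS 1 (adjusted p = 0.057). Myh1 passed the low-count filter only with its DM-AA libraries, so its rise in DM is not independent of that filter. In GM its log2 difference was also 1.34, on 24 reads with AA and 9 with PBS. It passed without GM-PBS 2 (adjusted p = 0.0777 with all libraries and 0.0434 without that one). Reads of neighbouring, related heavy chain genes (Myh1, Myh2, Myh3, Myh4 and Myh8) may have been split between them, which leaves their values uncertain.

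Of the light chains, Mylpf, the fast regulatory light chain, had 8.1, 11.8 and 15.3 CPM in DM-AA libraries and 3.36, 2.47 and 4.02 CPM in DM-PBS libraries. Its GM libraries had 4.28, 4.76 and 7.3 CPM with AA and 3.19, 3.31 and 3.97 CPM with PBS. AA libraries lay above PBS libraries in both media, but the rise passed in DM (1.84 ± 0.21, adjusted p = 4.22e-08) and not in GM (0.64 ± 0.25, adjusted p = 0.0667), where it passed in some alternatives (adjusted p = 0.012 to 0.0368), among them the fit without GM-AA 1 (0.0334). Myl1, the fast essential light chain, had 6.75, 4.9 and 6.22 CPM in DM-AA and 2.75, 2.34 and 3.52 CPM in DM-PBS. It had 3.04, 1.39 and 3.3 CPM in GM-AA and 1.37, 1.96 and 1.2 CPM in GM-PBS. Myl1 rose in DM (1.06 ± 0.23, adjusted p = 0.000541), while in GM one AA library fell among the PBS libraries (0.77 ± 0.31, adjusted p = 0.0792, and 0.0129 without GM-AA 2). Myl4, the embryonic and atrial essential light chain, had 1.35, 1.59 and 2.75 CPM in DM-AA, 0.713, 1.6 and 0.879 CPM in DM-PBS, 1.46, 1.51 and 1.18 CPM in GM-AA and 1.02, 1.23 and 2.05 CPM in GM-PBS. Its groups overlapped in both media, with adjusted p = 0.0793 in DM (0.0436 without DM-AA 1 and 0.0292 without DM-PBS 2) and 0.954 in GM.

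Mylk2, the skeletal kinase of the myosin regulatory light chain, had another pattern. It had 9.58, 10.4 and 10.5 CPM in DM-AA libraries and 12.7, 10.2 and 11.7 CPM in DM-PBS libraries, against 39.5, 35.3 and 33.1 CPM in GM-AA libraries and 17.2, 19.5 and 17.1 CPM in GM-PBS libraries. The GM-AA libraries were far above the other 9. Mylk2 rose with AA in GM (1.01 ± 0.093, adjusted p = 5.93e-10), and its value in DM was -0.19 ± 0.13 (adjusted p = 0.297). The difference of both effects was -1.2 ± 0.16 (adjusted p = 8.19e-06).

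Both sarcomeric actins rose with AA in DM. Actc1, the cardiac actin that developing skeletal muscle expresses first, had 39.4, 54.0 and 54.7 CPM in DM-AA, 15.4, 15.4 and 16.7 CPM in DM-PBS, 7.09, 6.39 and 8.01 CPM in GM-AA and 4.55, 5.64 and 5.9 CPM in GM-PBS. Acta1, the skeletal actin, had 35.7, 51.9 and 56.0 CPM in DM-AA, 16.3, 16.5 and 17.8 CPM in DM-PBS, 53.3, 58.2 and 68.2 CPM in GM-AA and 39.8, 43.7 and 44.8 CPM in GM-PBS. AA libraries were above PBS libraries in both media for both genes, but Actc1 was low in GM and Acta1 was high there. In DM, Actc1 rose by 1.64 ± 0.11 (log2, adjusted p = 8.52e-14) and Acta1 by 1.51 ± 0.12 (adjusted p = 1.18e-11). In GM, Acta1 rose by 0.49 ± 0.099 (adjusted p = 0.000493), and Actc1 had 0.42 ± 0.19 (adjusted p = 0.117). Actc1 passed there in 1 alternative, a correction for GC and length with the replicate number as a block (adjusted p = 0.0481). Of the RPKM of both actins, Actc1 made up 54.0 ± 1.51% in DM-AA, 51.5 ± 0.148% in DM-PBS, 11.9 ± 1.03% in GM-AA and 12.4 ± 0.815% in GM-PBS (SD, n = 3 each), so the share differed by medium far more than by AA. These actins and the smooth muscle actin Acta2 are closely related genes with similar coding sequences. Acta2 had means of 2260 CPM in DM-AA, 1910 in DM-PBS, 1830 in GM-AA and 1690 in GM-PBS, and the counting of reads that match several actins is not given in the labels. Both values are uncertain for this, and the part of Acta2 was not tested.

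**Figure D3:**
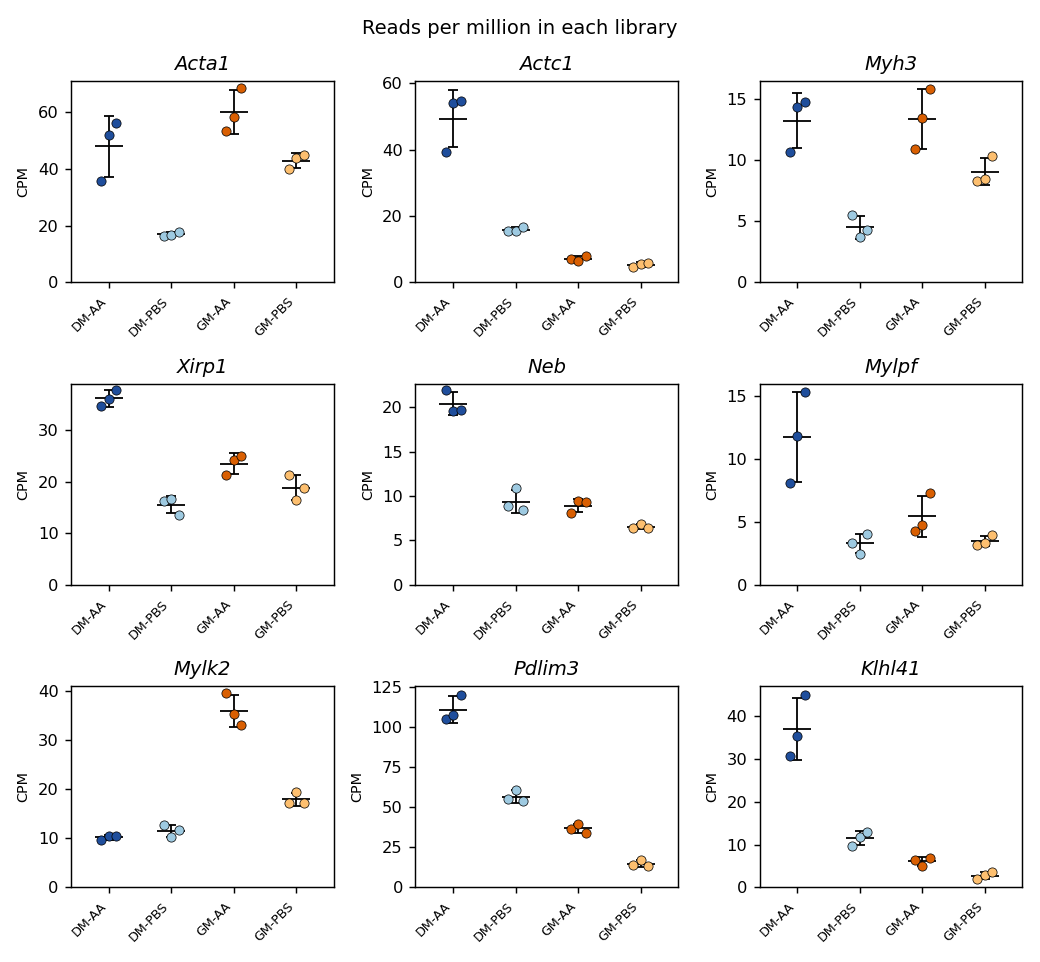
CPM of 9 sarcomere genes in each library (points, 3 per group), with the group mean and SD (bars), on linear axes that start at 0. Acta1, Actc1, Myh3, Xirp1, Neb and Mylpf are separated by AA more widely in DM than in GM, Mylk2 is separated in GM, and Pdlim3 and Klhl41 are separated in both media.

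All 3 fast troponin genes and the slow Tnni1 rose with AA in DM. The fast forms Tnnc2, Tnni2 and Tnnt3 rose by 2.09 ± 0.28, 1.22 ± 0.22 and 1.99 ± 0.38 on the log2 scale (adjusted p = 6.92e-07, 7.38e-05 and 0.000147). Their counts were low, with 123, 145 and 54 reads in the DM-AA libraries together and 30, 65 and 14 reads in DM-PBS. Tnnt3 passed the low-count filter only with its DM-AA libraries, so its rise is not independent of that filter. The slow inhibitory subunit Tnni1, at 9.33, 8.82 and 9.45 CPM in DM-AA and 4.28, 6.04 and 6.91 CPM in DM-PBS, rose by 0.7 ± 0.17 (adjusted p = 0.00238). The slow Tnnt1 (0.64 ± 0.32, adjusted p = 0.143), the slow and cardiac Tnnc1 (0.35 ± 0.15, adjusted p = 0.0935) and the cardiac and embryonic Tnnt2 (0.044 ± 0.084, adjusted p = 0.746) did not pass. In GM no troponin passed, with log2 differences between -0.07 for Tnnt2 and 0.94 for Tnnt1 (adjusted p = 0.635 and 0.0964, and 0.0432 for Tnnt1 without GM-AA 3). Opposite-strand exons of Ube2c cover 74.0% of the exon bases of Tnnc2. Ube2c, a ubiquitin-conjugating enzyme of mitosis, had 124 ± 6.55 CPM in DM-AA, against 86.5 ± 3.51 CPM in DM-PBS, and its part in the Tnnc2 value was not tested.

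Per kilobase, Tnnt2 and Tnnc1 had the highest mean levels of the troponin genes in each group, and neither passed with AA. Tnnt2 had 37.6, 47.9 and 41.5 CPM in DM-AA, 41.1, 40.7 and 41.3 CPM in DM-PBS, 36.8, 31.8 and 31.8 CPM in GM-AA and 38.6, 36.1 and 30.7 CPM in GM-PBS. Tnnc1 had 7.49, 8.33 and 8.37 CPM in DM-AA, 6.62, 5.18 and 7.16 CPM in DM-PBS, 8.66, 8.71 and 8.83 CPM in GM-AA and 7.85, 7.23 and 9.51 CPM in GM-PBS. AA and PBS libraries of Tnnt2 overlapped in both media, and those of Tnnc1 overlapped in GM, while in DM its 3 AA libraries lay above its 3 PBS libraries. Of the RPKM of the 3 troponin T genes, Tnnt2 gave 89.5 ± 1.41% in DM-AA, 94.8 ± 0.855% in DM-PBS, 93.0 ± 0.595% in GM-AA and 95.4 ± 0.882% in GM-PBS. The 3 AA libraries lay below the 3 PBS libraries in each medium. Tmod1, which caps the pointed end of the thin filament, rose in DM (1.49 ± 0.23, adjusted p = 7.85e-06) and in GM (1.43 ± 0.23, adjusted p = 1.77e-05). Opposite-strand exons of Tstd2 cover 32.6% of its exon bases, and Tstd2 itself had 40.1 ± 1.15 CPM in DM-AA, 40.4 ± 0.886 in DM-PBS, 39.3 ± 3.57 in GM-AA and 41.5 ± 1.28 in GM-PBS.

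**Figure D4:**
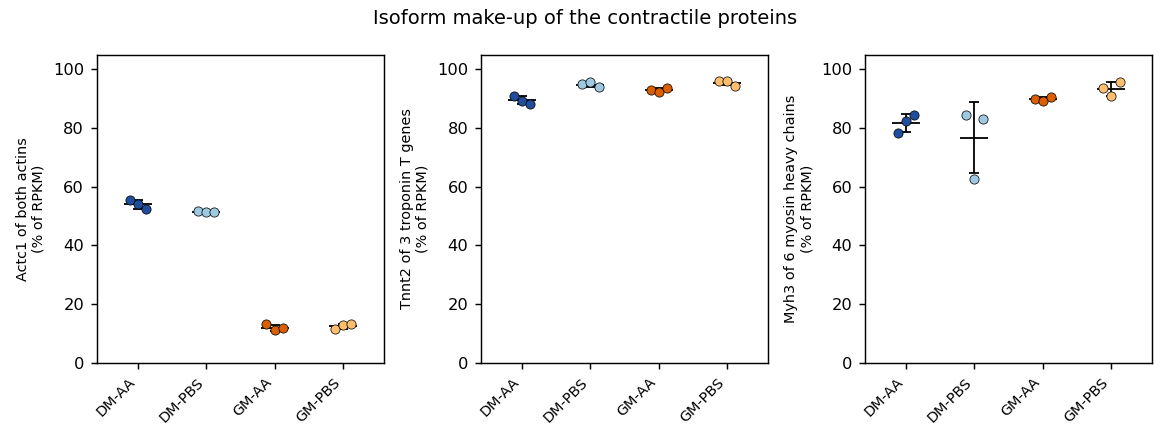
Share of total RPKM given by Actc1 among both sarcomeric actins (left), Tnnt2 among the 3 troponin T genes (middle) and Myh3 among the 6 myosin heavy chain genes (right), in each library (points) with the group mean and SD. The Actc1 share is 51.5% and 54.0% in the DM groups and 11.9% and 12.4% in the GM groups. Myh3 means lie between 76.7% and 93.4%, with 1 DM-PBS library at 62.7%.

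Titin (Ttn), the giant spring of the sarcomere, had the most reads of the group after Des. It had 1190, 1220 and 1260 CPM in DM-AA, 725, 725 and 516 CPM in DM-PBS, 324, 470 and 489 CPM in GM-AA and 215, 222 and 209 CPM in GM-PBS. The 4 groups did not overlap. Ttn rose with AA in DM by 0.9 ± 0.094 (log2, adjusted p = 3.49e-09) and in GM by 0.99 ± 0.1 (adjusted p = 4.08e-09) (1.87-fold and 1.98-fold). Myom2, an M-band protein that crosslinks myosin tails, had 30.9, 34.8 and 39.7 CPM in DM-AA, 17.6, 18.0 and 21.6 CPM in DM-PBS, 37.7, 38.2 and 39.4 CPM in GM-AA and 16.4, 17.8 and 19.1 CPM in GM-PBS. Its AA libraries lay above its PBS libraries in each medium, with rises of 0.89 ± 0.096 in DM (adjusted p = 7.51e-09) and 1.12 ± 0.095 in GM (adjusted p = 1.09e-10).

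Nebulin (Neb), which lines the thin filament, had 21.9, 19.6 and 19.7 CPM in DM-AA, 8.86, 10.9 and 8.41 CPM in DM-PBS, 8.1, 9.41 and 9.3 CPM in GM-AA and 6.37, 6.86 and 6.38 CPM in GM-PBS. The DM-AA libraries stood well above the other 9. Neb rose 2.18-fold with AA in DM (1.12 ± 0.11, adjusted p = 2.39e-09). In GM it rose by 0.45 ± 0.15 (adjusted p = 0.0247). That call was lost with DESeq2 (adjusted p = 0.0818), under the GC and length correction with the replicate block (0.0541), and without GM-AA 2, GM-AA 3, GM-PBS 1 or GM-PBS 3 (0.0675 to 0.0835). Mybph (myosin-binding protein H) and Myom1 (the other main M-band protein) rose in DM by 1.28 ± 0.25 and 1.09 ± 0.34 (adjusted p = 0.000175 and 0.0154) and had 0.13 and 0.23 in GM (adjusted p = 0.843 and 0.708). The Myom1 call in DM was lost with DESeq2 (adjusted p = 0.0932) and without DM-AA 3, DM-PBS 1 or DM-PBS 3 (0.0709 to 0.0754). Opposite-strand exons of Adora1 cover 49.9% of the exon bases of Mybph, and Adora1 had 1.74 ± 0.59 CPM in DM-AA and 0.779 ± 0.424 in DM-PBS. Opposite-strand exons of Myl12a cover 1.98% of those of Myom1, which had 137 reads in 12 libraries, against 93030 for Myl12a. Myl12a had 959 ± 30.0 CPM in DM-AA and 994 ± 34.6 in DM-PBS, and its part in the Myom1 value was not tested.

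All 5 tested genes of the Z-disc and its partners rose with AA in both media. Pdlim3, the actinin-associated LIM protein, had 105, 107 and 120 CPM in DM-AA, 55.1, 60.8 and 53.6 CPM in DM-PBS, 36.6, 39.4 and 33.9 CPM in GM-AA and 14.1, 17.2 and 13.1 CPM in GM-PBS. Synpo2l, a Z-disc protein of the synaptopodin family, had 94.3, 107 and 108 CPM in DM-AA, 62.1, 55.4 and 63.5 CPM in DM-PBS, 41.0, 42.6 and 46.2 CPM in GM-AA and 20.3, 19.0 and 20.6 CPM in GM-PBS. Actn3, the alpha-actinin of fast fibres, had 96.4, 101 and 105 CPM in DM-AA, 65.7, 66.7 and 70.3 CPM in DM-PBS, 29.6, 30.2 and 31.4 CPM in GM-AA and 23.6, 21.9 and 23.3 CPM in GM-PBS. In each of the 3 genes the groups stood in the same order without overlap, from DM-AA at the top through DM-PBS and GM-AA to GM-PBS. The rises in DM were 0.97 ± 0.067, 0.77 ± 0.063 and 0.58 ± 0.056 on the log2 scale for Pdlim3, Synpo2l and Actn3 (adjusted p = 3.92e-13, 1.65e-11 and 6.65e-10). Those in GM were 1.31 ± 0.099, 1.11 ± 0.086 and 0.41 ± 0.079 (adjusted p = 9.71e-12, 1.31e-11 and 0.000284).

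Ldb3, a PDZ and LIM protein of the Z-disc also called ZASP, rose by 0.39 ± 0.075 in DM (adjusted p = 0.000181) and 0.42 ± 0.082 in GM (adjusted p = 0.000307). Xirp1, the actin-binding Xin protein, had 34.6, 36.0 and 37.8 CPM in DM-AA, 16.3, 16.6 and 13.6 CPM in DM-PBS, 21.2, 24.2 and 25.0 CPM in GM-AA and 21.3, 16.4 and 18.8 CPM in GM-PBS. The DM groups were well apart, and in GM the lowest AA library lay just under the highest PBS library. Xirp1 rose in DM by 1.22 ± 0.098 (adjusted p = 1.26e-11) and in GM by 0.31 ± 0.1 (adjusted p = 0.0269). The GM call was lost with DESeq2 (adjusted p = 0.0731) and without GM-AA 2, GM-AA 3, GM-PBS 2 or GM-PBS 3 (0.066 to 0.154).

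Desmin moved little in proportion. Des had 1680, 1820 and 1870 CPM in DM-AA, 1570, 1540 and 1540 CPM in DM-PBS, 1720, 1660 and 1710 CPM in GM-AA and 1480, 1440 and 1430 CPM in GM-PBS. AA libraries were above PBS libraries in each medium, and the small rises passed, 0.21 ± 0.044 in DM (adjusted p = 0.000422) and 0.22 ± 0.044 in GM (adjusted p = 0.000291). Ckm, the muscle creatine kinase that supplies ATP at the M-band, was low and scattered. It had 1.72, 4.16 and 1.79 CPM in DM-AA, 1.63, 0.493 and 1.38 CPM in DM-PBS, 1.24, 2.79 and 2.24 CPM in GM-AA and 1.02, 0.858 and 1.32 CPM in GM-PBS. In DM it rose by 1.09 ± 0.38 (adjusted p = 0.0298), and the call was lost with DESeq2 (adjusted p = 0.0818) and without DM-AA 2 (0.37) or DM-PBS 2 (0.162). In GM it had 0.95 ± 0.4 (adjusted p = 0.0921), passing with no low-count filter (0.0388) and without GM-AA 1 (0.0327).

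The assembly factors had some of the largest rises. Klhl41, a kelch protein that stabilises nebulin, had 30.8, 35.3 and 44.9 CPM in DM-AA, 9.67, 11.7 and 12.9 CPM in DM-PBS, 6.3, 5.0 and 6.95 CPM in GM-AA and 1.93, 2.82 and 3.49 CPM in GM-PBS. Smyd1, a muscle methyltransferase needed for thick filament assembly, had 32.0, 36.9 and 41.4 CPM in DM-AA, 14.3, 12.0 and 11.6 CPM in DM-PBS, 9.56, 9.88 and 13.0 CPM in GM-AA and 3.87, 4.9 and 2.17 CPM in GM-PBS. AA libraries lay above PBS libraries in each medium for both genes. Klhl41 rose 3.26-fold in DM (1.71 ± 0.13, adjusted p = 2.02e-12) and 2.22-fold in GM (1.15 ± 0.25, adjusted p = 0.000882). Smyd1 rose 2.9-fold in DM (1.54 ± 0.12, adjusted p = 9.18e-12) and 2.95-fold in GM (1.56 ± 0.2, adjusted p = 4.44e-07). Unc45b, the chaperone that folds the myosin head, had 59 reads in the DM-AA libraries together, 13 in DM-PBS, 25 in GM-AA and 11 in GM-PBS. It rose in DM (2.22 ± 0.39, adjusted p = 4.57e-05) and had 1.12 ± 0.5 in GM (adjusted p = 0.111). Unc45b passed the low-count filter only with its DM-AA libraries, so its rise in DM is not independent of that filter.

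The size of the AA effect differed between the media for 7 of the 31 genes. In the test of the difference itself, the effect in DM was larger for Acta1 (difference of log2 fold changes 1.02 ± 0.16, adjusted p = 7.81e-05), Xirp1 (0.91 ± 0.14, adjusted p = 8.73e-05), Actc1 (1.22 ± 0.22, adjusted p = 0.000582), Myh3 (0.97 ± 0.24, adjusted p = 0.0087), Neb (0.67 ± 0.19, adjusted p = 0.027) and Mylpf (1.2 ± 0.34, adjusted p = 0.0317). It was smaller for Mylk2. That is 6 higher and 1 lower, where 2.58% of all tested genes were higher and 2.67% lower. The median difference was 0.28 over the 31 genes, against -0.0011 over all tested genes. Acta1, Xirp1, Actc1, Myh3 and Mylk2 passed in each alternative that gave an adjusted p. The Neb difference was lost when DM-AA 1, GM-AA 1, DM-PBS 1, DM-PBS 3, GM-PBS 2 or GM-PBS 3 was left out (adjusted p = 0.0531 to 0.0783). The Mylpf difference was lost without DM-AA 2, DM-AA 3, DM-PBS 1, DM-PBS 2, GM-AA 1, GM-AA 2, GM-PBS 2 or GM-PBS 3 (0.0509 to 0.119). Tnnt3 and Tnnc2 had larger values with wider errors (1.88 ± 0.62 and 1.36 ± 0.49, adjusted p = 0.0712 and 0.105), passing without DM-AA 1 (0.0476 and 0.0425) and, for Tnnt3, without GM-PBS 1 (0.0498). The Tnnt3 value is not independent of the low-count filter, which that gene passed only with DM-AA.

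Between media, the sarcomere genes split in the PBS libraries. Of 31 genes, 13 were higher in DM-PBS than in GM-PBS and 5 were lower, where 27.0% of all tested genes were higher and 27.4% lower. The median log2 fold change was 0.2 over the 31 genes and 0.0071 over all tested genes. The higher genes included Klhl41 (2.05 ± 0.22, adjusted p = 8.12e-10), Pdlim3 (1.93 ± 0.092, adjusted p = 1.62e-18), Ttn (1.61 ± 0.099, adjusted p = 1.57e-15), Synpo2l (1.6 ± 0.082, adjusted p = 9.33e-18), Actn3 (1.56 ± 0.07, adjusted p = 2.61e-19) and Actc1 (1.56 ± 0.16, adjusted p = 4.95e-10). Smyd1, Tnni2, Neb, Ldb3, Myh1, Myl1 and Tnnt2 were the others. The lower genes were Acta1 (-1.34 ± 0.12, adjusted p = 3.24e-11), Myh3 (-0.99 ± 0.19, adjusted p = 3.9e-05), Mylk2 (-0.62 ± 0.11, adjusted p = 2.07e-05), Tnnc1 (-0.37 ± 0.15, adjusted p = 0.0392) and Xirp1 (-0.28 ± 0.11, adjusted p = 0.0317). The skeletal actin and the embryonic myosin were thus lower in DM than in GM without AA. The calls of Tnnc1 and Xirp1 were lost with DESeq2 (adjusted p = 0.127 and 0.074), and that of Tnnc1 also when the GM-PBS and DM-PBS groups alone were fitted (0.0523) and under the GC and length correction (0.11). Without GM-PBS 1 or GM-PBS 3 the lower genes numbered 3. The Tnnc1 call was also lost without DM-PBS 1 or DM-PBS 2, and the Xirp1 call without DM-PBS 3 (adjusted p = 0.0514 to 0.225 over these libraries for both genes). Of the higher genes, Myh1 was lost with DESeq2 (adjusted p = 0.0665) and without DM-PBS 2, GM-PBS 1 or GM-PBS 3 (0.0969 to 0.311), Myl1 without DM-PBS 3 or GM-PBS 3 (0.0648 and 0.0577), and Tnnt2 with DESeq2 (0.0816) and without any 1 of the 3 DM-PBS libraries or GM-PBS 3 (0.0525 to 0.236).

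**Figure D5:**
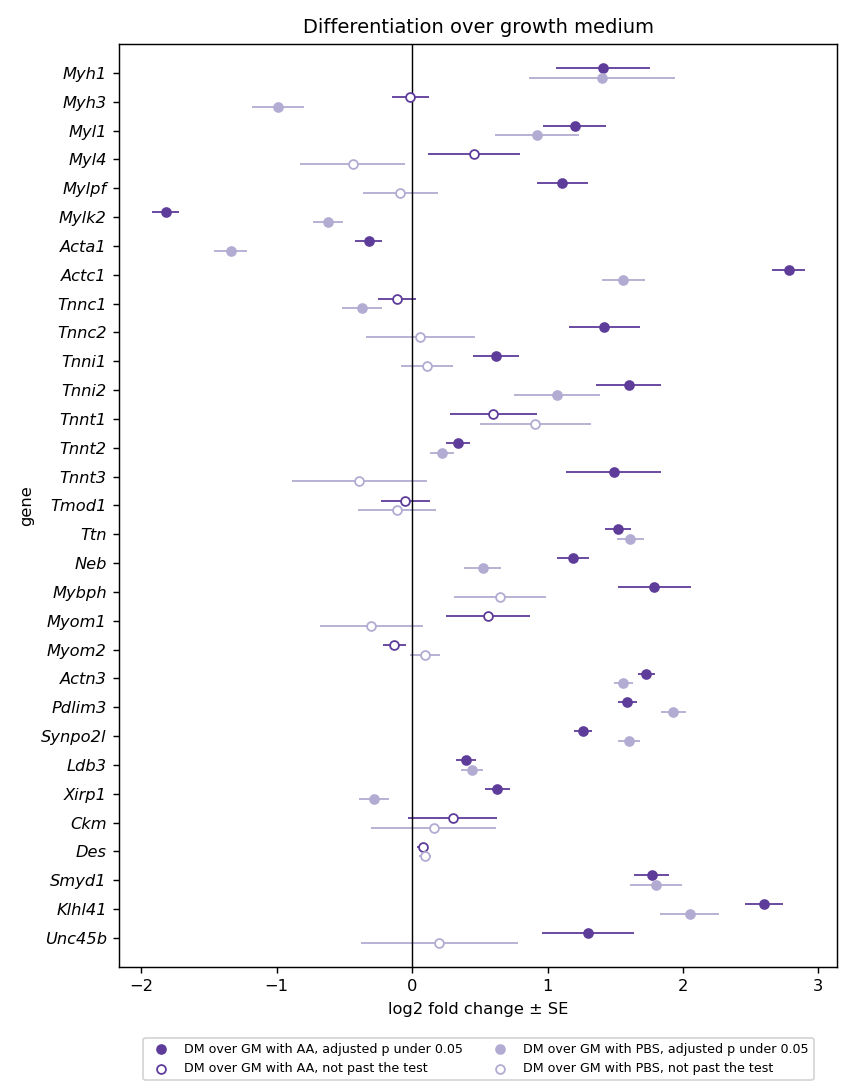
Log2 fold change of DM over GM for each tested sarcomere gene in the AA libraries (dark, upper point of each row) and in the PBS libraries (light, lower point), with SE bars; filled points passed a 5% false discovery rate and open points did not. With AA 20 points are filled on the right of 0 and 2 on the left, and with PBS 13 and 5.

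In the AA libraries more of the genes were higher in DM. Of 31, 20 were higher in DM-AA than in GM-AA and 2 were lower, where 25.9% of all tested genes were higher and 26.3% lower. The median log2 fold change was 1.11 over the 31 genes and 0.0058 over all tested genes. The largest rises were Actc1 (2.78 ± 0.12, adjusted p = 2.18e-19), Klhl41 (2.6 ± 0.14, adjusted p = 9.4e-17) and Mybph (1.79 ± 0.27, adjusted p = 1.01e-06). Those with the smallest p were Actn3 (1.73 ± 0.063, adjusted p = 9.3e-22), Actc1 and Pdlim3 (1.59 ± 0.071, adjusted p = 2.78e-19). Mylk2 was lower (-1.82 ± 0.1, adjusted p = 2.13e-16), and so was Acta1 (-0.32 ± 0.098, adjusted p = 0.00636), whose call was lost with DESeq2 (adjusted p = 0.113) and without DM-AA 1 (0.14) or GM-AA 3 (0.0873). Without DM-AA 3, Myom2 also passed as lower (adjusted p = 0.0407). Myh3 had nearly the same level with AA in both media (-0.012, adjusted p = 0.952). DM-AA had the highest of the 4 group means for 25 of the 31 genes, against 23.9% of all tested genes, and GM-AA for the other 6 (Myh3, Acta1, Tnnc1, Myom2, Mylk2 and Tmod1). The media comparisons use the same libraries as the AA comparisons, so these counts are not independent of those above. Tnnt3, Unc45b and Myh1, which passed the low-count filter only with DM-AA, are among the 20 and the 25.

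Other genes around the sarcomere moved in both directions. Their counts are set beside the shares of all tested genes, which with AA were 12.6% higher and 13.8% lower in DM and 9.76% higher and 11.0% lower in GM, and several counts of 1 or 2 genes lie near those shares. Of 38 further sarcomere proteins 21 were tested, and with AA 7 rose and 1 fell in DM (median log2 0.047) and 4 rose and 5 fell in GM (median 0.021). Lmod3, the leiomodin that lengthens thin filaments, rose in DM (1.36 ± 0.14, adjusted p = 4.04e-09) and GM (1.21 ± 0.22, adjusted p = 9.75e-05). The LIM protein Fhl1 also rose in DM and GM (0.31 ± 0.048, adjusted p = 5.1e-06, and 0.29 ± 0.048, adjusted p = 3.4e-05). The M-band protein Myom3 rose in DM (1.76 ± 0.28, adjusted p = 8.51e-06), and the filamin Flnc fell in GM (-0.23 ± 0.054, adjusted p = 0.00169). The tropomyosin Tpm2 rose in DM (0.27 ± 0.049, adjusted p = 6.64e-05) with a value of -0.12 in GM (adjusted p = 0.0856, and 0.0236 without GM-PBS 3). Of 15 tested genes of sarcomere assembly and turnover, 5 rose and 2 fell in DM (median 0.084) and 7 rose and 1 fell in GM (median 0.28). The kelch gene Klhl31 rose in DM (1.02 ± 0.11, adjusted p = 1.24e-08). Xirp2, a relative of Xirp1, rose in DM (0.78 ± 0.18, adjusted p = 0.00143) and GM (1.42 ± 0.24, adjusted p = 3.72e-05). Of the ubiquitin ligases known from muscle atrophy, Fbxo32 fell in DM (-0.63 ± 0.048, adjusted p = 3.04e-12) and GM (-0.72 ± 0.049, adjusted p = 9.22e-13). Trim63, named after its values were seen, rose in DM (1.55 ± 0.43, adjusted p = 0.00641, and 0.0561 with DESeq2) and GM (2.11 ± 0.55, adjusted p = 0.00516), on 37 reads in DM-AA, 13 in DM-PBS, 28 in GM-AA and 6 in GM-PBS.

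Of 12 tested genes of the costamere and dystrophin complex, 4 rose in DM and the others did not pass (median 0.085), and 5 rose and 1 fell in GM (median 0.16), among them the integrin Itga7 (0.23 ± 0.045, adjusted p = 0.000241). Of 13 tested genes of non-muscle actomyosin, 1 rose and 4 fell in DM (median -0.091) and 1 rose and 2 fell in GM (median -0.08). Over all tested genes, 12.6% rose and 13.8% fell in DM, and 9.76% rose and 11.0% fell in GM. Several of these list counts lie near those shares. The non-muscle alpha-actinin Actn1 fell in both (-0.29 ± 0.049, adjusted p = 2.35e-05, in DM and -0.19 ± 0.048, adjusted p = 0.00445, in GM), and Mylk, the smooth muscle and non-muscle myosin light chain kinase, rose in DM (0.77 ± 0.075, adjusted p = 8.69e-10). The medians of these lists lay between -0.091 and 0.28, against 1.09 in DM and 0.64 in GM for the 31 sarcomere genes. Genes and lists were chosen with earlier results of these data known, and 1 of the lists also holds sarcomere proteins. The gap is therefore not a test that the rise is particular to the 31 genes.

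Among 12 tested regulators of muscle gene transcription, 4 rose and 1 fell with AA in DM (median 0.075) and 3 rose and 1 fell in GM. The shares of all tested genes were 12.6% higher and 13.8% lower in DM, and 9.76% higher and 11.0% lower in GM. Myog, the myogenin of terminal differentiation, had 122, 139 and 144 CPM in DM-AA and 69.5, 67.6 and 73.6 CPM in DM-PBS, against 12.4, 15.3 and 17.4 CPM in GM-AA and 10.2, 12.5 and 12.6 CPM in GM-PBS. It was high in DM and highest with AA there (0.94 ± 0.066, adjusted p = 5.03e-13). Its small GM rise (0.35 ± 0.13, adjusted p = 0.0489) was lost with DESeq2 (0.0518), with the GM groups alone (0.0587) and without each GM library other than GM-AA 1 (0.0531 to 0.275). Myod1 had 172, 173 and 171 CPM in DM-AA, 165, 163 and 168 CPM in DM-PBS, 165, 184 and 186 CPM in GM-AA and 227, 232 and 217 CPM in GM-PBS, and fell with AA in GM (-0.34 ± 0.049, adjusted p = 3.52e-06). Its value in DM was 0.059 (adjusted p = 0.425, and 0.0167 under the GC and length correction). The early factor Myf5 rose in DM (0.27 ± 0.068, adjusted p = 0.00317) and GM (0.64 ± 0.072, adjusted p = 3.5e-08). Mef2c rose in GM (0.85 ± 0.25, adjusted p = 0.0128), a call lost with DESeq2 (0.0597) and without GM-AA 2 (0.12) or GM-PBS 1 (0.0808). Srf had 0.022 in DM (adjusted p = 0.795, and 0.0443 under the GC and length correction) and -0.082 in GM (adjusted p = 0.273).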

How the data were processed

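Messenger RNA of C2C12 cells was measured in 12 libraries, 3 in each of DM-AA, DM-PBS, GM-AA and GM-PBS. The submitters' processing notes name the aligner BWA (0.5.9-r16) and the mouse build mm9. The deposited table holds raw read counts per gene, RPKM values and gene lengths in base pairs, which the authors computed, per the file headers. The sources used here do not give the counting rule, the library strand or the handling of reads with several matches. Opposite-strand overlaps (exons of GENCODE M21 on GRCm38) and closely related genes therefore leave values uncertain.

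Counts were tested with edgeR 4.0.16 in R 4.3.3 (filterByExpr by group, TMM, glmQLFit and glmQLFTest, two-sided), with 1 model of 4 group means over 12 libraries. Adjustment was by the Benjamini-Hochberg method within a comparison (12230 genes), with a threshold of 5%. The common biological coefficient of variation was 4.08%, and the chi-square per degree of freedom between 2 libraries of a group was 1.46 to 2.94, where 1 is counting noise. The SE is the absolute log2 fold change divided by the square root of the F statistic. CPM were scaled with TMM, and RPKM are the authors' values. Alternatives were DESeq2 1.42.0 and its size factors, no low-count filter, the compared groups alone, a replicate block, a GC and length trend removed (GC was known for 99.3% of tested genes), and leaving out each library. The script was tested on simulated data. Promoter sequences came from RefSeq (GRCm38.p6).

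The genes, roles and lists were chosen with earlier results of these data known. Each gene of the set is named, library values are given for a list of 14 genes and for the 3 genes of smallest p in each direction of a comparison, and up to 4 called genes of each other list are named.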

Additional observations from a re-analysis of the deposited data

Results flagged for a closer look

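The AA effect differed between the media, by the test of the difference itself, for 7 sarcomere genes. The difference of log2 fold changes (DM minus GM) was -1.2 for Mylk2, 1.02 for Acta1, 0.91 for Xirp1, 1.22 for Actc1, 0.97 for Myh3, 0.67 for Neb and 1.2 for Mylpf. Mylk2 is the gene of the set that passed with a larger AA effect in GM, where its 3 AA libraries had 33.1 to 39.5 CPM, against 17.1 to 19.5 CPM in PBS. Acta1 and Myh3 had 35.7 to 56.0 CPM and 10.6 to 14.7 CPM in DM-AA libraries, against 16.3 to 17.8 CPM and 3.7 to 5.5 CPM in DM-PBS libraries, which lay below every library of the other groups. In GM-AA they had 53.3 to 68.2 CPM and 10.9 to 15.8 CPM. By group mean, DM-PBS was also the lowest for Xirp1 (15.5 CPM, against 18.8 CPM in GM-PBS) and Mylpf (3.28 CPM, against 3.49 CPM in GM-PBS).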

How the results depend on the processing

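No called sarcomere gene changed direction in any alternative. Calls held in each alternative that gave an adjusted p for 23 of 26 genes higher with AA in DM, 12 of 15 in GM, 20 of 20 higher in DM with AA and 10 of 13 with PBS; those lost are named in the text. Leaving out a library gave 24 to 27 genes higher with AA in DM and 13 to 17 in GM, with 0 lower in each case, 10 to 13 higher and 3 to 5 lower in DM with PBS, 20 to 21 and 1 to 3 with AA, and 4 to 7 larger and 1 to 2 smaller AA effects in DM. DESeq2 gave 3 genes lower in DM with PBS, 1 lower with AA and 3 with a larger AA effect in DM; in the last, Myh3, Neb and Mylpf were among 18 genes without an adjusted p. The genes with a smaller AA effect in DM numbered 2 with no low-count filter, with the GC and length trend removed, and with that and the replicate block; Synpo2l was the added gene (-0.34, adjusted p = 0.0585 in the fit reported). The number was also 2 without DM-PBS 2 or GM-AA 1, again with Synpo2l, and without GM-PBS 2, with Pdlim3 (-0.46, adjusted p = 0.0346).

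Deviations of libraries with the same number correlated at -0.0676 to 0.0823, and those with different numbers at -0.0763 to 0.0816. With 3 libraries a group, values this small cannot tell whether a number marks a shared culture or day. With the replicate block, the genes higher with AA numbered 26 in DM and 16 in GM. Among the tested genes, depth limits Myh1, Unc45b, Tnnt3 and Myom1, with 106 to 137 reads in 12 libraries, most.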
